A study of Mus musculus with 1024 samples.

Results

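The Hox genes of the mouse aorta were examined as a set of 39 genes, taken from the deposited count table by symbol alone: Hox followed by a, b, c or d and a number, with nothing after it. They were 39 of the 24422 genes in the table, with 11 in the HoxA cluster, 10 in HoxB, 9 in HoxC and 9 in HoxD. By paralogue group, the number in the symbol, 8 members were anterior (groups 1 to 3), 15 central (groups 4 to 8) and 16 posterior (groups 9 to 13).

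Hox genes encode homeodomain transcription factors that give cells a position along the head-to-tail axis of the embryo. The members of a cluster lie in the order in which they are used along that axis, so that those at the 3' end are active from anterior levels onwards and those at the 5' end only further back. Many adult cells keep part of this pattern, and in the vessel wall it has been used as a record of where along the body axis a cell arose.

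The study sorted cells from the aortae of mice 3 months old that carry or lack endothelial AmotL2, a scaffold protein of the angiomotin family, and asked how the aortic endothelium changes when it is lost. The strain carried floxed alleles of Amotl2, the tamoxifen-inducible Cre driven by the endothelial Cdh5 promoter, and a ROSA26-EYFP reporter, spelled in the labels as Amotl2flow/flow / Cdh5-RREert /ROSA26-EYFP for both genotypes. The mice had a C57BL/6 background, and the genotypes are called WT (amotl2 ec+/ec+) and KO (amotl2 ec-/ec-) here. Because the Cre is endothelial, it is not meant to delete Amotl2 in other cells of the wall. The lumen side of the aorta was digested, Cd45+ cells were removed with magnetic beads, and single viable cells were sorted into wells either as Cd45-, Cd31+ (the label Endothelial) or as Cd45-, Cd31- (the label DoubleNegative), the latter as a control. Aortae of 6 mice per genotype were pooled over 2 preparations, so that each combination of genotype, gate and preparation is 1 pooled sample and there were 8 samples in all, 4 per gate. The study places the cells in the descending aorta, and the labels give no position along it for a cell.

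Smart-seq2 full-length libraries without molecular identifiers were made from single wells, and 784 of 1024 wells with at least 20000 gene counts and 500 genes were kept. The Cd31+ samples held 235 (WT preparation 1), 50 (WT preparation 2), 302 (KO preparation 1) and 89 (KO preparation 2) wells, and the Cd31- samples 42, 12, 40 and 14. Median depth per sample ran from 46891 to 252839 counts per well, and the counts summed per sample from 926398 to 94881185. Markers went with the gates: the summed level of 10 endothelial markers was 15294 to 18073 CPM (counts scaled to the same total of gene counts in each sample) in the Cd31+ samples and 42.5 to 1308 CPM in the Cd31- samples, and that of 9 smooth muscle markers was 722 to 1666 CPM against 22126 to 56498 CPM. Ptprc, which encodes Cd45, was at 0 in 7 of the 8 samples, and 6 leukocyte markers together summed to at most 3.26 CPM. In a check of the labels, Amotl2 in the Cd31+ samples was at 59.9 and 94.0 CPM in WT and 51.9 and 45.7 CPM in KO, while the EYFP reporter was at 2.38 and 0.353 CPM in WT and 113 and 85.5 CPM in KO, and neither difference passed the test (adjusted p = 1 for each). The paper verified recombination through the deletion of exon 3 in Amotl2 transcripts and through YFP, and counts per gene do not resolve exons. WT and KO wells of preparation 1 came from different plates, and effects of plate cannot be told apart from those of genotype within it.

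Most Hox genes of the HoxA and HoxB clusters were read in the aorta, and the posterior ends of HoxC and HoxD were not. Of the 39 members, 31 had a count in at least 1 kept well, 31 in Cd31+ wells and 26 in Cd31- wells. By cluster, counts were found in Cd31+ and Cd31- wells for 11 and 10 HoxA members, 9 and 8 HoxB members, 6 and 6 HoxC members, and 5 and 2 HoxD members. The 8 members without a count were Hoxb13, Hoxc11, Hoxc12, Hoxc13, Hoxd1, Hoxd11, Hoxd12 and Hoxd13, of which all but Hoxd1 are posterior. A further 5 members (Hoxa13, Hoxb1, Hoxd3, Hoxd4 and Hoxd10) had counts in Cd31+ wells alone, where 676 of the 784 kept wells lay.

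Nearly every well held a Hox transcript, and the Cd31+ wells held more different ones. At least 1 member was counted in 95.4% to 100% of the wells of the Cd31+ samples and in 95.2% to 100% of those of the Cd31- samples. The median number of members per well was 4, 6, 4 and 4 in the Cd31+ samples (WT preparations 1 and 2, then KO preparations 1 and 2, the order used throughout) and 3, 2, 2 and 2.5 in the Cd31- samples. With each well thinned to 20000 counts, which removes differences in depth, the mean number was 2.47 to 3.01 in Cd31+ and 1.33 to 2.21 in Cd31- samples, which did not overlap. The 15 members found in at least 10% of Cd31+ wells were Hoxa2, Hoxa3, Hoxa5, Hoxa7, Hoxa9, Hoxa10, Hoxb2, Hoxb3, Hoxb5, Hoxb6, Hoxb7, Hoxb8, Hoxb9, Hoxd3 and Hoxd8, and 9 members reached that share in Cd31- wells. Only Hoxa7 and Hoxb7 were in at least 25% of Cd31- wells, against 9 members in Cd31+ wells.

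**Figure D1:**
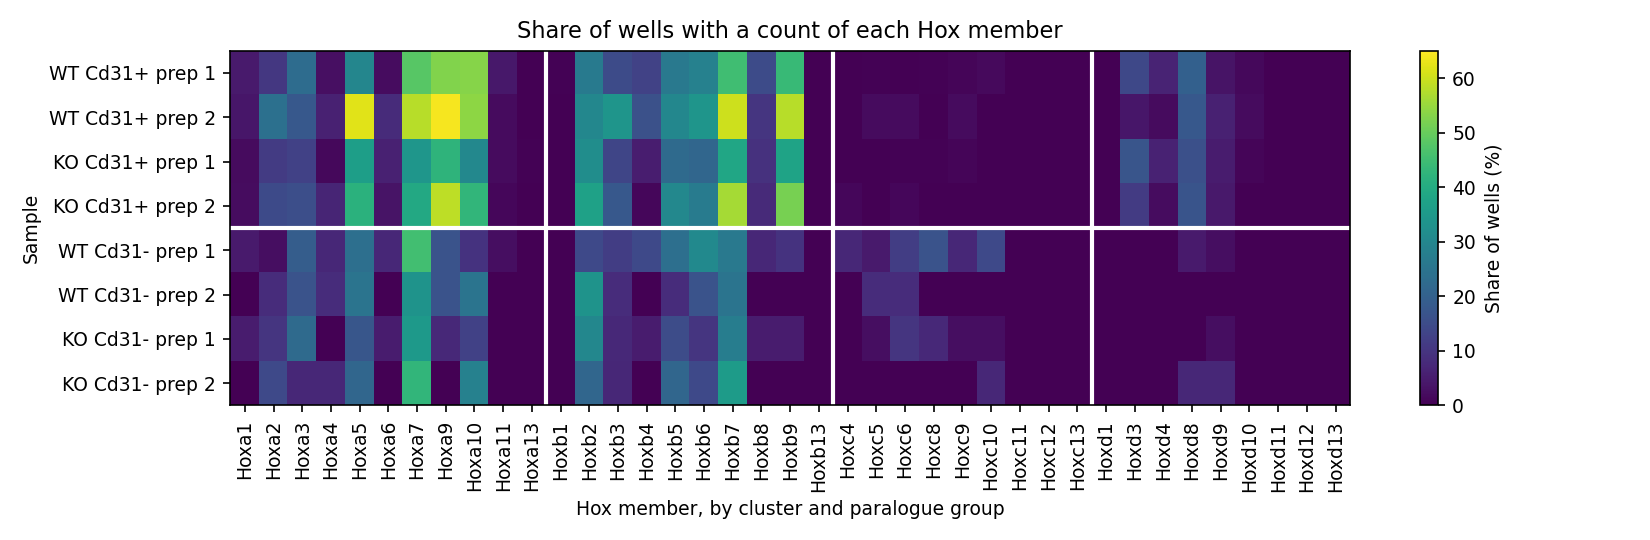
Share of kept wells with at least 1 count (percent, colour scale) of each of the 39 Hox members (columns, ordered by cluster and paralogue group, with white lines between clusters) in the 8 samples (rows, 4 Cd31+ above and 4 Cd31- below the white line). HoxA and HoxB members are the brightest in the Cd31+ rows, Hoxa9 and Hoxb9 are dark in the Cd31- rows, and HoxC members show mainly in Cd31- rows.

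Summed over all members, Hox transcripts took up 371, 324, 385 and 358 CPM in the Cd31+ samples and 198, 168, 173 and 171 CPM in the Cd31- samples. The gates did not overlap, and the difference lay mostly in the posterior members. Posterior members summed to 173, 147, 163 and 147 CPM in Cd31+ and 47.9, 26.3, 35.0 and 42.1 CPM in Cd31- samples. Central members summed to 154, 134, 172 and 159 CPM against 125, 109, 77.5 and 97.2 CPM, again without overlap but closer. Anterior members summed to 43.5, 43.3, 50.2 and 51.6 CPM against 25.2, 32.4, 60.5 and 31.3 CPM, and there the gates overlapped. In sums of wells, fewer cells that express a gene and less RNA per cell cannot be told apart, so the shares of wells are given beside the levels.

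To set different genes side by side, levels were divided by length. The length is that of all annotated exons of a gene together, so the order of genes depends on the annotation. Bases shared with other genes (20.4% for Hoxa7) were kept in the length. As mean CPM per kilobase of annotated exon (n = 4 samples), the Cd31+ samples had Hoxb7 at 37.4, Hoxb9 at 15.1, Hoxa10 at 14.9, Hoxa5 at 14, Hoxa9 at 11.6 and Hoxa7 at 9.54. In the Cd31- samples Hoxb7 was again first with 18.1 CPM per kilobase, followed by Hoxa7 at 8.43, Hoxa5 at 7.91, Hoxa10 at 7.53 and Hoxb6 at 5.24. Hoxa9 and Hoxb9 were at 0.872 and 0.563 CPM per kilobase in the Cd31- samples.

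To ask which members differed between the gates, the wells of each sample were summed and all 8 sums were fitted together with edgeR's quasi-likelihood test, with p-values adjusted by Benjamini-Hochberg over 12729 genes. Of the 39 members 26 passed the filter on low counts and were tested, and the other 13 were too low. Hoxa9, Hoxb9 and Hoxd3 were lower in Cd31- samples and Hoxc8 was higher. That is 4 of 26 members called, where 19% of all genes tested were called, 9.25% higher and 9.79% lower in Cd31-, so that the share of members called was near the background. The median log2 difference of the 26 members, Cd31- minus Cd31+, was -0.72 and that of all genes tested was -0.15, and 21 of the 26 members were below 0. The CPM values of the gates did not overlap for 8 members, all of them lower in Cd31- (Hoxa9, Hoxb3, Hoxb5, Hoxb7, Hoxb8, Hoxb9, Hoxd3 and Hoxd4). Over all genes tested 26.2% did not overlap, 8.98% being higher and 17.3% lower in Cd31-. Some members, among them Hoxb8, Hoxd3 and Hoxd4, passed the filter through Cd31+ samples alone, and Hoxc8 through Cd31- samples alone. The direction of these members was bound to the filter and is no support for a trend of the set.

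Hoxa9 and Hoxb9, the group 9 paralogues of the HoxA and HoxB clusters, were the members called lower in Cd31- samples that had counts in both gates. Hoxa9 is a posterior factor known from blood stem cells and from endothelial progenitors. It was at 60.4, 51.7, 75.3 and 72.4 CPM in the Cd31+ samples and at 7.84, 5.06, 6.57 and 0 CPM in the Cd31- samples. Every Cd31+ sample was above every Cd31- sample, with means of 64.9 ± 10.9 and 4.87 ± 3.44 CPM (SD, n = 4). The log2 difference, Cd31- minus Cd31+, was -3.48 ± 0.60 (SE, adjusted p = 0.00488). It was counted in 49.7% of Cd31+ wells (95% exact binomial interval 45.9% to 53.5%) and 11.1% of Cd31- wells (5.87% to 18.6%). These intervals, like all others given here, cover counting error only. With wells thinned to equal depth the shares were 36.4% and 8.33%, so the gap remained at equal depth.

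Hoxb9 gave 53.5, 31.5, 35.0 and 35.9 CPM in the Cd31+ samples and 4.52, 0, 1.27 and 0 CPM in the Cd31- samples. The gates again did not overlap, with means of 39 ± 9.86 and 1.45 ± 2.13 CPM (SD, n = 4), and the log2 difference was -4.43 ± 0.80 (SE, adjusted p = 0.00578). Hoxb9 was counted in 43.8%, 58.0%, 37.7% and 51.7% of the wells of the Cd31+ samples and in 9.52%, 0%, 5.0% and 0% of those of the Cd31- samples. Its exons overlap no other annotated gene on the reference, and those of Hoxa9 share 1.52% of their bases with another gene, the microRNA gene Mir196b. The calls of Hoxa9 and Hoxb9 held in all 17 alternatives tried.

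Hoxa10, the next posterior member of HoxA, did not part the gates in the same way. It was at 51.5, 60.5, 44.9 and 37.5 CPM in the Cd31+ samples and 14.8, 21.3, 22.5 and 39.9 CPM in the Cd31- samples. The gates overlapped through KO preparation 2, with a log2 difference of -0.92 ± 0.36 (SE) that did not pass the test (adjusted p = 0.116). Its share of wells was 41.7% in Cd31+ and 14.8% in Cd31-. Hoxb8, at the boundary of the central members, was at 3.18, 1.06, 1.03 and 1.53 CPM against 0.452, 0, 0.318 and 0 CPM, without overlap and without a call (log2 difference -2.43 ± 1.22, adjusted p = 0.217).

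**Figure D2:**
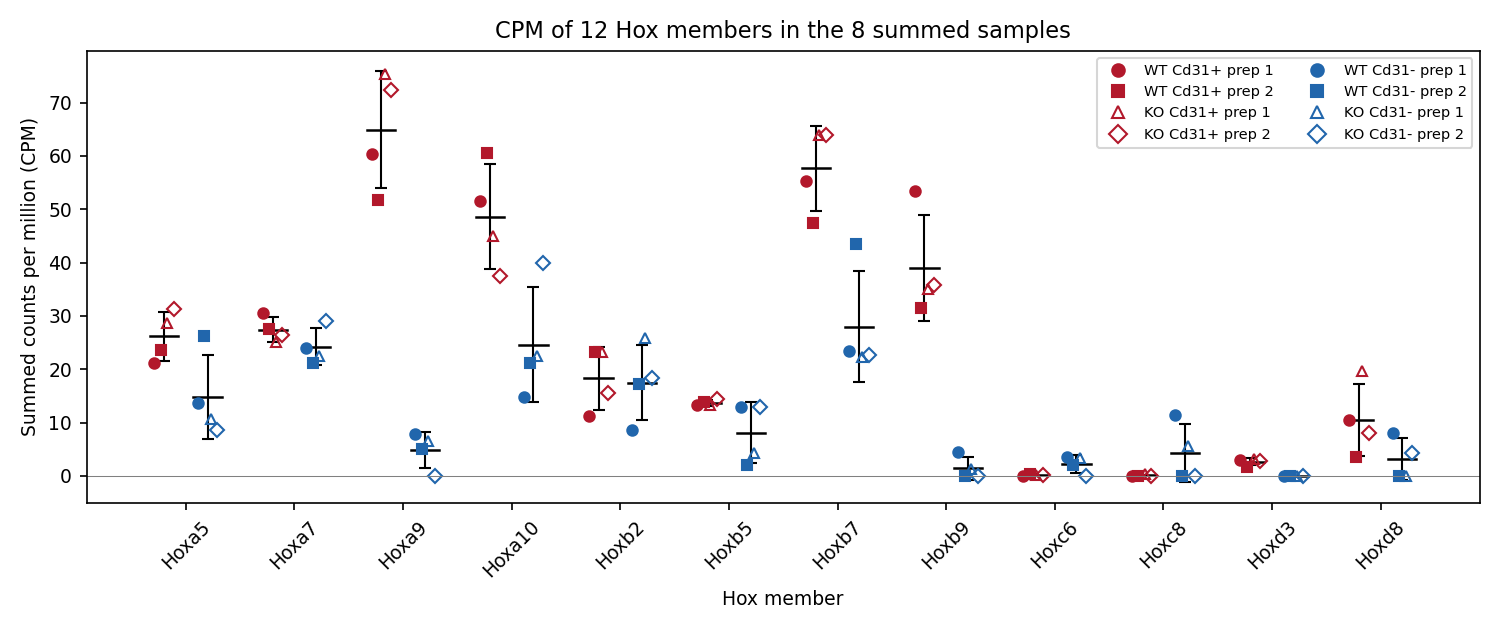
CPM of 12 Hox members (horizontal axis) in each sample, with 4 Cd31+ points in red and 4 Cd31- points in blue per member, WT filled and KO open, and black bars for the mean and SD of each gate. Hoxa9 lies at 51.7 to 75.3 CPM in Cd31+ and 0 to 7.84 CPM in Cd31- samples, while the Hoxa7 points of both gates lie between 21.3 and 30.6 CPM.

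Hoxd3, an anterior HoxD member, was at 2.98, 1.68, 3.15 and 2.72 CPM in the Cd31+ samples and had no count in any Cd31- sample. Against a floor of 3 counts over the Cd31- samples together it was at least 17.8-fold higher in Cd31+, a bound that was not tested. The log2 difference of the edgeR fit was -8.84 ± 2.18 (SE, adjusted p = 0.0326), with its direction bound to the filter. It was in 14.3% of Cd31+ wells and 0 of 108 Cd31- wells (exact upper limit 3.36%), and thinning brought the Cd31+ share to 3.99%. Its neighbour Hoxd4 had 1.53, 0.176, 1.79 and 0.236 CPM in Cd31+ samples and likewise no Cd31- count, at least 9.11-fold higher in Cd31+, without a call (adjusted p = 0.126). The exons of Hoxd3 share 62.8% of their bases with other annotated genes, among them Hoxd4 and the antisense gene Hoxd3os1, and those of Hoxd4 share 52.3%. No source states whether reads were counted by strand, so these genes cannot be told apart fully. The call of Hoxd3 was lost whenever any 1 of the 8 samples was left out, with the value staying below 0, and with the cell suspension from which both gates were sorted as a block (adjusted p = 0.157). The other HoxD member above 10% of Cd31+ wells, Hoxd8, was at 10.6, 3.62, 19.7 and 8.03 CPM against 8.14, 0, 0 and 4.32 CPM, with overlapping gates and no call (adjusted p = 0.444).

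The reference positions of the clusters, in GRCm38, are chr6:52155590-52260880 (minus strand) for HoxA, chr11:96194316-96368256 (plus) for HoxB, chr15:102921103-103036852 (plus) for HoxC and chr2:74668310-74765142 (plus) for HoxD. Promoters, from 250 bases before to 50 after an annotated start, were taken from RefSeq (GRCm38.p6) for the 22 of 39 members that matched, 24 promoters in all. Below are those of Hoxa9 and Hoxd3, which were called, and of Hoxd4, which went with Hoxd3. All are written 5' to 3' on the strand of the gene. Hoxb9 and Hoxc8 had no entry. Capitals mark matches, on either strand, to AGGTCA, the core that retinoic acid receptors bind, to TTTATNG, a Cdx-type site, or to TGATNNAT, a joint Hox and Pbx site.
Hoxa9, chr6:52227321-52227620, minus strand: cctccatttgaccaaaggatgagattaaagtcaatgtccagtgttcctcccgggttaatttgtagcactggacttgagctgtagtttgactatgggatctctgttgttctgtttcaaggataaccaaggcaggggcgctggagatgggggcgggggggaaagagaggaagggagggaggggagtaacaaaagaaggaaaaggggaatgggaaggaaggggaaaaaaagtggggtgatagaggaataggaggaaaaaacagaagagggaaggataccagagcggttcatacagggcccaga
Hoxd3, chr2:74711743-74712042, plus strand: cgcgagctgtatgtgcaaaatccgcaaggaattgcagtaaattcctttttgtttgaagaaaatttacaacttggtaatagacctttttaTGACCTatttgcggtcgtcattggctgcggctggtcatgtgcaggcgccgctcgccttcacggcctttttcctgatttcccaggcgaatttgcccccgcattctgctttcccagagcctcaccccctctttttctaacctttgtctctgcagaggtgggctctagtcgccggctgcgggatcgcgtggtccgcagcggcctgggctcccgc
Hoxd4, chr2:74721728-74722027, plus strand: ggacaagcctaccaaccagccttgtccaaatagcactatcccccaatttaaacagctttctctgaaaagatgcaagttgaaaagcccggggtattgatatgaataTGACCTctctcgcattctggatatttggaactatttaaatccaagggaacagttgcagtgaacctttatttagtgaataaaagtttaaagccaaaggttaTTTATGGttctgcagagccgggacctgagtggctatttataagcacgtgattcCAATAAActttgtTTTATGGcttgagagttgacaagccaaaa

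The Hoxa9 window held none of these motifs and 4 CpG. The Hoxd3 window held 20 CpG and 1 AGGTCA match on the other strand, read as TGACCT. The Hoxd4 window held 4 CpG, 1 AGGTCA match and 3 TTTATNG matches. Over all 32851 RefSeq promoters of this length, AGGTCA was in 16.3%, TTTATNG in 10.9% and TGATNNAT in 8.85%. Among the 24 Hox promoters AGGTCA was in 7 (29.2%), TTTATNG in 2 (8.33%) and TGATNNAT in 4 (16.7%). The Hox promoters were richer in CpG, with a median of 14.5 against 7 over all promoters. A match here is a description of letters and not a binding site, and no test was made of it.

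HoxC was the one cluster whose summed level was higher in the Cd31- than in the Cd31+ sample of each genotype and preparation, on few counts in preparation 2. It summed to 2.05, 1.68, 0.885 and 0.236 CPM in Cd31+ and to 39.6, 3.04, 14.5 and 1.08 CPM in Cd31- samples. A HoxC count was found in 3.40%, 4.0%, 1.32% and 1.12% of Cd31+ wells and in 40.5%, 16.7%, 20% and 7.14% of Cd31- wells, so that every Cd31- sample was above every Cd31+ sample in share. The preparation 2 values of Cd31- rested on 3 counts in 2 wells (WT) and 1 count in 1 well (KO, interval 0.181% to 33.9%), too few to set them above the Cd31+ samples. For comparison, HoxA summed to 177 to 196 CPM against 83.0 to 97.2 CPM and HoxB to 138 to 161 CPM against 65.4 to 74.5 CPM, both higher in Cd31+ without overlap, and HoxD was at 19.7, 7.50, 29.1 and 11.7 CPM against 8.29, 0, 0.106 and 5.40 CPM.

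Hoxc8, a central HoxC member that patterns the thoracic level of the trunk, was the one member called higher in Cd31- samples. It was at 0.0250, 0, 0.316 and 0 CPM in Cd31+ samples, where all 30 counts of KO preparation 1 came from 1 fibroblast-like well, and at 11.5, 0, 5.62 and 0 CPM in Cd31- samples, and both preparation 2 Cd31- samples had none. The log2 difference was 6.14 ± 1.78 (SE, adjusted p = 0.0427). Without the Cd31- sample of WT or of KO preparation 1 it was 1.02 or 1.52 with an adjusted p of 1 (rounded) in each, and 76 counts of WT preparation 1 came from 7 wells and 53 counts of KO preparation 1 from 3 wells. With the cell suspension as a block its adjusted p was 0.166. Hoxc10, a posterior member, was at 1.33, 0, 0 and 0 against 16.4, 0, 4.45 and 1.08 CPM (log2 difference 6.43 ± 1.94, adjusted p = 0.0554), with all 42 counts of KO preparation 1 from 1 well. Hoxc6, a central member, was at 0, 0.441, 0.0843 and 0.118 against 3.62, 2.02, 3.39 and 0 CPM (log2 difference 4.18 ± 1.57, adjusted p = 0.104). Hoxc9 was at 0.350, 1.15, 0.485 and 0 against 2.56, 0, 0.106 and 0 CPM.

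The Cd31- wells were of more than 1 kind, and HoxC counts were unevenly spread over them. When all kept wells were clustered without the Hox genes, the Cd31- wells fell into 70 smooth muscle-like wells, led by Myh11 and Cnn1, 37 fibroblast-like wells, led by Dpep1, C7 and Dpt, and 1 endothelial-like well. The Cd31+ wells held 14 smooth muscle-like and 2 fibroblast-like wells beside 660 endothelial-like ones. The fibroblast-like wells made up 26 of 42 in WT preparation 1, 1 of 12 in WT preparation 2, 9 of 40 in KO preparation 1 and 1 of 14 in KO preparation 2. HoxC was counted in 18 of 37 fibroblast-like wells (48.6%, interval 31.9% to 65.6%) and in 10 of 70 smooth muscle-like wells (14.3%, interval 7.07% to 24.7%). Hoxc8 was counted in 24.3% and 1.43%, Hoxc6 in 21.6% and 2.86%, and Hoxc9 in 10.8% and 0% of these wells, where the exact upper limit for 0 of 70 wells is 5.13%. Hoxc10 was not split in this way, with counts in 8.11% and 7.14% of the wells and levels of 7.85 and 8.82 CPM. It gave 101 of the 108 HoxC counts of the smooth muscle-like wells. By sample, HoxC was in 12 of 26 fibroblast-like and 5 of 16 smooth muscle-like wells of WT preparation 1, and in 6 of 9 and 2 of 31 of KO preparation 1. The preparation 2 samples had a single fibroblast-like well each, with no HoxC count, against 2 of 10 smooth muscle-like wells in WT and 1 of 13 in KO. Hoxa9 did not follow this split, with counts in 4 of 37 fibroblast-like and 7 of 70 smooth muscle-like wells. In the Cd31+ gate it was in 1 of 5, 1 of 1, 3 of 6 and 0 of 2 smooth muscle-like wells by sample. It was also in 2 of 2 fibroblast-like wells of that gate, all from KO preparation 1. These wells are few, and the cause was not tested. With the Cd31- samples limited to smooth muscle-like wells, a choice made after seeing the clusters, Hoxa9, Hoxb9 and Hoxd3 were called and Hoxc8 was not.

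None of the other central members of HoxA, HoxB and HoxD passed the test between the gates. Hoxa7 was at 30.6, 27.6, 25.1 and 26.4 CPM in Cd31+ and 24, 21.3, 22.6 and 29.1 CPM in Cd31- samples. The gates overlapped, and the log2 difference was -0.07 ± 0.36 (adjusted p = 0.926), with a sign that turned under thinning and without KO preparation 1. Its share of wells was 41.4% in Cd31+ and 39.8% in Cd31-. Hoxb7, the member with the highest level per length, was at 55.4, 47.4, 64.0 and 64.0 CPM against 23.4, 43.5, 22.3 and 22.7 CPM, without overlap but short of a call (log2 difference -0.97 ± 0.34, adjusted p = 0.0823). Without WT preparation 2, the highest of its Cd31- samples, the log2 difference was -1.22. That fit left 1 sample in its group, and Hoxb7 was not called in the reported fit. The group 7 paralogues therefore had a share in Cd31- wells of 39.8% (Hoxa7) and 27.8% (Hoxb7), where the group 9 paralogues had 11.1% and 5.56%.

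Groups 5 and 6 were measured through Hoxa5, Hoxb5 and Hoxb6. Hoxa5, studied in endothelium as a factor of the resting state, was at 21.1, 23.6, 28.7 and 31.3 CPM against 13.7, 26.3, 10.7 and 8.64 CPM (adjusted p = 0.260). Hoxb5 was at 13.3, 13.9, 13.2 and 14.4 CPM in Cd31+ and 13, 2.02, 4.35 and 13 CPM in Cd31- samples, with no overlap by a narrow margin and no call (adjusted p = 0.603). Hoxb6 overlapped widely, at 13, 10.9, 14.1 and 10.3 CPM against 14, 3.04, 5.72 and 18.4 CPM. Hoxa6 was low, at 0.354 to 1.16 CPM in Cd31+ and 0 to 2.86 CPM in Cd31- samples, with a log2 difference above 0 (1.04 ± 1.22, adjusted p = 0.625).

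Of the anterior members, Hoxb2, Hoxa2 and Hoxa3 overlapped between the gates and Hoxb3 did not. Hoxb2 was at 11.2, 23.2, 23.2 and 15.5 CPM in Cd31+ and 8.59, 17.2, 25.9 and 18.4 CPM in Cd31- samples. Hoxa2 was at 8.21, 6.09, 11.7 and 7.32 CPM against 0.151, 6.07, 13.4 and 8.64 CPM, and Hoxa3 at 10.8, 2.03, 5.39 and 4.96 CPM against 13.6, 7.08, 6.04 and 2.16 CPM. The sample lowest in Hoxa2 was WT preparation 1 of the Cd31- wells. Hoxb3 was at 7.03, 8.12, 6.16 and 19.6 CPM against 2.56, 2.02, 5.41 and 2.16 CPM, without a call (log2 difference -1.59 ± 0.76, adjusted p = 0.196). The exons of Hoxb2 and Hoxb3 share 27.3% and 52.9% of their bases with other genes, mainly the antisense gene Hoxb3os.

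**Figure D3:**
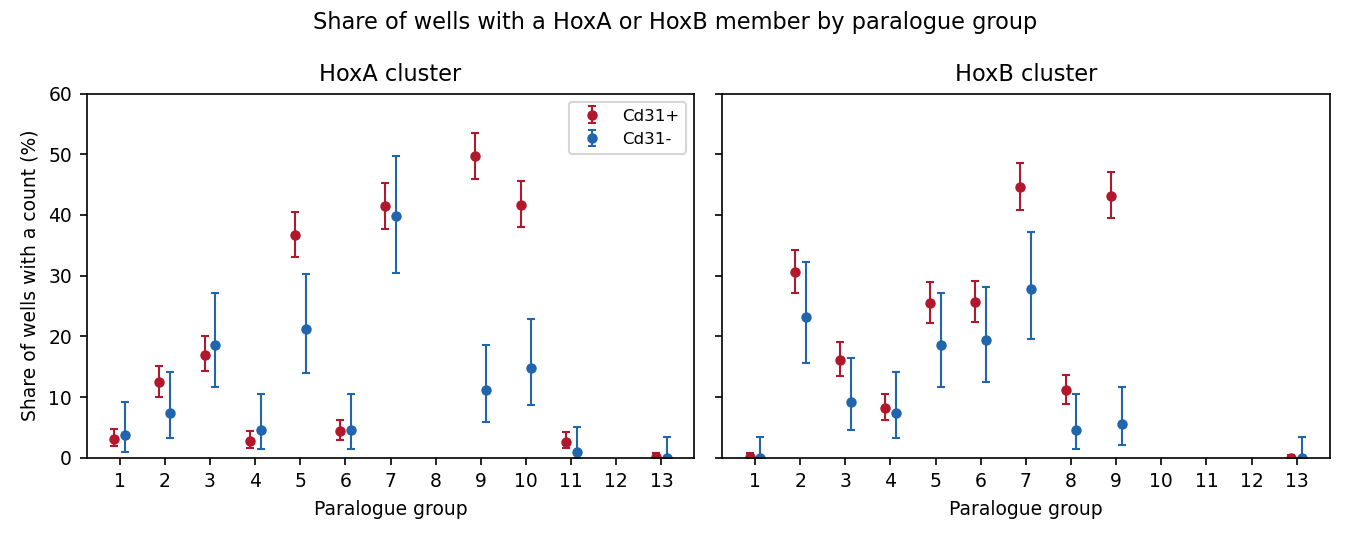
Share of wells with a count (percent, with 95% exact binomial intervals) of HoxA and HoxB members by paralogue group, for the Cd31+ and the Cd31- wells pooled over samples. The gates lie together at Hoxa7 (41.4% and 39.8%) and far apart at Hoxa9 (49.7% and 11.1%) and Hoxb9 (43.2% and 5.56%).

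Whether loss of AmotL2 changed Hox levels was tested in each gate with the same fit. In the Cd31+ samples 0 of 26 members were called, and 0% of all genes tested were called. The EYFP reporter, with a log2 difference of 6.10 ± 1.06 (SE), was not called either. A lack of calls between the genotypes therefore does not show a lack of change. An unadjusted p under 0.05 was reached by 191 genes, of which 1, Hoxc10, was a member, and its Cd31+ counts all came from WT preparation 1. DESeq2 called 25 genes and 0 members. Of the 26 members 15 were higher and 11 lower in KO, with a median log2 difference, KO minus WT, of 0.11. Compared within preparations, 8 were higher in KO in both, 5 lower in both and 11 went opposite ways. For Hoxa9 the log2 difference was 0.41 ± 0.75 (SE) and for Hoxb9 -0.25 ± 0.91, both with an adjusted p of 1.

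In the Cd31- samples, where the Cre is not meant to act, edgeR likewise called 0 of 26 members and 0% of all genes, with 1130 genes and 0 members at an unadjusted p under 0.05, while DESeq2 called 189 genes and 0 members. Hoxa9 differed by -0.64 ± 0.84 on the log2 scale (adjusted p = 0.915) and Hoxb9 by -1.55 ± 1.15 (adjusted p = 0.765). The test of whether the genotype difference itself differed between gates called 0 members and 0% of genes, with 657 genes and 0 members at an unadjusted p under 0.05. DESeq2 called 46 genes and 0 members in that test. With 2 samples per group the spread was wide (biological coefficient of variation 0.616), and the standard errors of 0.75 to 1.15 on the log2 scale for Hoxa9 and Hoxb9 bound what could be seen.

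Whether anterior and posterior members marked different wells was asked by counting the wells that held both. For each sample, the number of wells with counts of both classes was set against the number expected from the shares of each class, within the shallower and the deeper part of the sample's wells. In the Cd31+ wells, anterior and posterior members were read together in 341 wells where 321 were expected, a ratio of 1.06. The ratio was 1.07, 1.04, 1.07 and 1.04 in the 4 samples, so it was slightly above 1 in each, and with wells thinned to equal depth the pooled ratio was 1.02. Posterior members were read in 82.8% of Cd31+ wells with an anterior member and in 68.6% of those without. A further 71 Cd31+ wells had anterior members without posterior ones, 181 posterior without anterior and 83 neither. The classes next to each other on the axis gave like ratios, 1.04 (374 wells against 360) for anterior with central and 1.04 (472 against 455) for central with posterior.

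In the Cd31- wells anterior and posterior members were read together in 11 wells where 14.8 were expected, a ratio of 0.745. By sample the ratio was 0.875, 0, 0.964 and 0, with both zeros in the preparation 2 samples, which held 12 and 14 wells. Anterior with central gave 0.947 (41 wells against 43.3) and central with posterior 1.02 (28 against 27.5). The posterior share in these wells was itself low, at 38.1%, 33.3%, 22.5% and 28.6% by sample against 80.4%, 84.0%, 72.8% and 79.8% in Cd31+ wells.

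**Figure D4:**
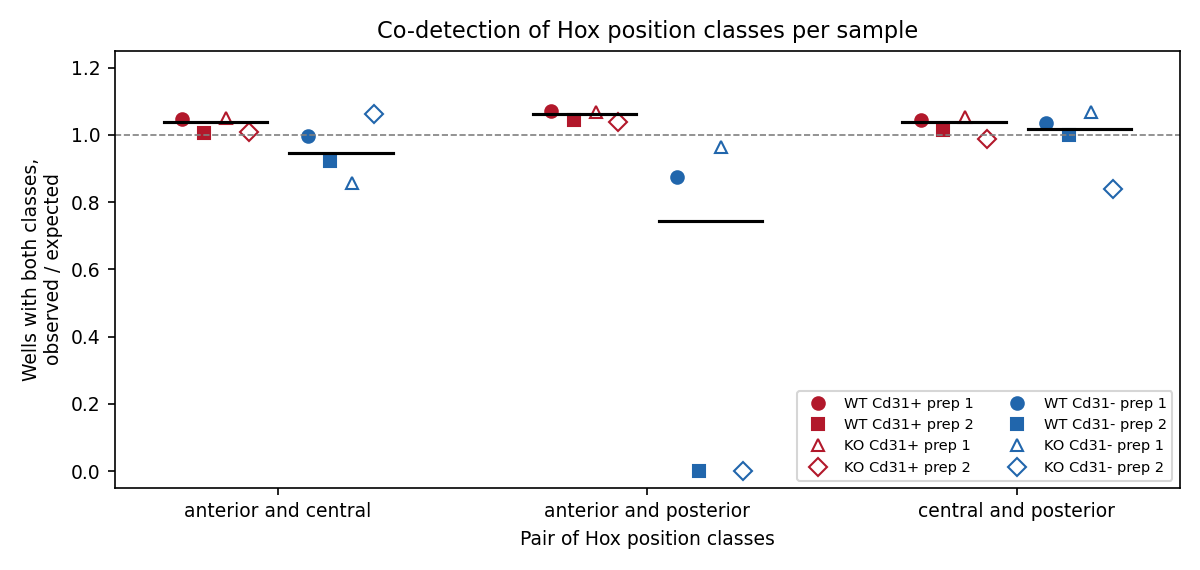
Observed over expected number of wells (ratio) with counts of both position classes, for the 3 pairs of classes in Cd31+ and Cd31- wells, with 1 point per sample and a black line for the gate pooled. Cd31+ points lie between 0.989 and 1.07, and the anterior with posterior points of the Cd31- samples reach down to 0.

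Pairs of single members gave the same picture in the Cd31+ wells. Among 133 pairs with at least 5 wells expected, 120 were read together more often than expected, with a median ratio of 1.16 and a range of 0.631 to 1.81. Pairs were not thinned, and no set of pairs outside the Hox genes was measured as a background. With Hoxa9, the factors Tbx1, Foxc2, Mef2c, Gata6 and Isl1, which are no Hox genes, gave 1.18, 1.11, 1.06, 1.02 and 0.944. Ratios above 1 are therefore not shown to be particular to Hox pairs. The median was 1.18 for 46 pairs of the same cluster, 1.18 for 8 pairs of the same paralogue group and 1.14 for the other 79. Over 15 pairs of an anterior with a posterior member it was 1.12, with 13 above 1. The highest ratio was that of Hoxd3 with Hoxd4, whose exons overlap, and the lowest that of Hoxa3 with Hoxb8 (10 wells against 15.9, ratio 0.631), below 1 in all 4 samples. Hoxa2 and Hoxa9, from opposite ends of HoxA, were read together at a ratio of 1.30, above 1 in all 4 samples. Among 14 pairs in Cd31- wells the median was 0.961, with Hoxa7 and Hoxb7 highest at 1.37 (17 wells against 12.4).

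Posterior and central members differed in share between the largest groups of endothelial wells. The clustering without Hox genes gave a group of 245 wells led by G0s2, Ackr4, Aldh3a1, Frzb, Nkx2-3, Wnk4 and Isl1, in that order. Isl1 is a factor of the second heart field. A group of 206 wells was led by Tbx1, another factor of the outflow tract region, and Nt5e. These are descriptions of clusters, with no test, and the names are labels only. In the Cd31+ samples Tbx1 was counted in 32.0%, 26.1%, 41.4% and 31.0% of the wells of the group it led. Isl1 was in 71.4%, 91.7%, 67.5% and 78.6% of the wells of its own group and in 32.0%, 52.2%, 18.1% and 28.6% of the Tbx1 group. Hoxa9 was counted in 4.76%, 45.8%, 36.9% and 50% of the G0s2/Isl1 wells of the Cd31+ samples and in 64.0%, 82.6%, 49.1% and 73.8% of the Tbx1/Nt5e wells. Hoxb9 was in 14.3%, 33.3%, 33.8% and 45.2% against 48.0%, 82.6%, 50% and 61.9%. Both were higher in the Tbx1/Nt5e wells in 4 of 4 samples, also in CPM and with wells thinned to equal depth.

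The central class went the same way, in 57.1%, 95.8%, 81.5% and 88.1% of the G0s2/Isl1 wells and 92.0%, 100%, 90.5% and 95.2% of the Tbx1/Nt5e wells, higher in 4 of 4 samples and, after thinning, in 3 of 4. Of its members Hoxa7, Hoxb6, Hoxb7, Hoxb8 and Hoxd8 were each higher in share there in 4 of 4 samples. After thinning Hoxa7 and Hoxb7 stayed so, while Hoxb6, Hoxb8 and Hoxd8 were higher in 3 of 4. In CPM Hoxb6 and Hoxb7 were higher in 3 of 4. Median depth was lower in the G0s2/Isl1 wells of both WT samples and higher in those of both KO samples. How many genes outside the Hox set were higher there in 4 of 4 samples was not measured. Any posterior member was in 28.6%, 70.8%, 70.7% and 71.4% of the G0s2/Isl1 wells and in 76.0%, 95.7%, 78.4% and 92.9% of the Tbx1/Nt5e wells. Anterior members were in 28.6%, 58.3%, 58.0% and 61.9% against 52.0%, 78.3%, 63.8% and 59.5%, higher in the Tbx1/Nt5e wells in 3 of 4 samples and, after thinning, in 2 of 4. Hoxa5 and Hoxa3 were higher there in 2 of 4 samples and Hoxb3 in 1 of 4. All Hox members together summed to 192, 294, 347 and 292 CPM in the G0s2/Isl1 wells and to 435, 370, 463 and 423 CPM in the Tbx1/Nt5e wells. The low value in WT preparation 1 rested on 21 wells, of which 76.2% had any Hox count. A group of 154 wells led by class II histocompatibility genes such as Cd74 came almost wholly from 1 sample, with 153 wells from WT preparation 1, 0 from WT preparation 2 and 1 from KO preparation 1, and was at 57.1% for Hoxa9, 48.1% for Hoxb9 and 87.0% for posterior members.

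**Figure D5:**
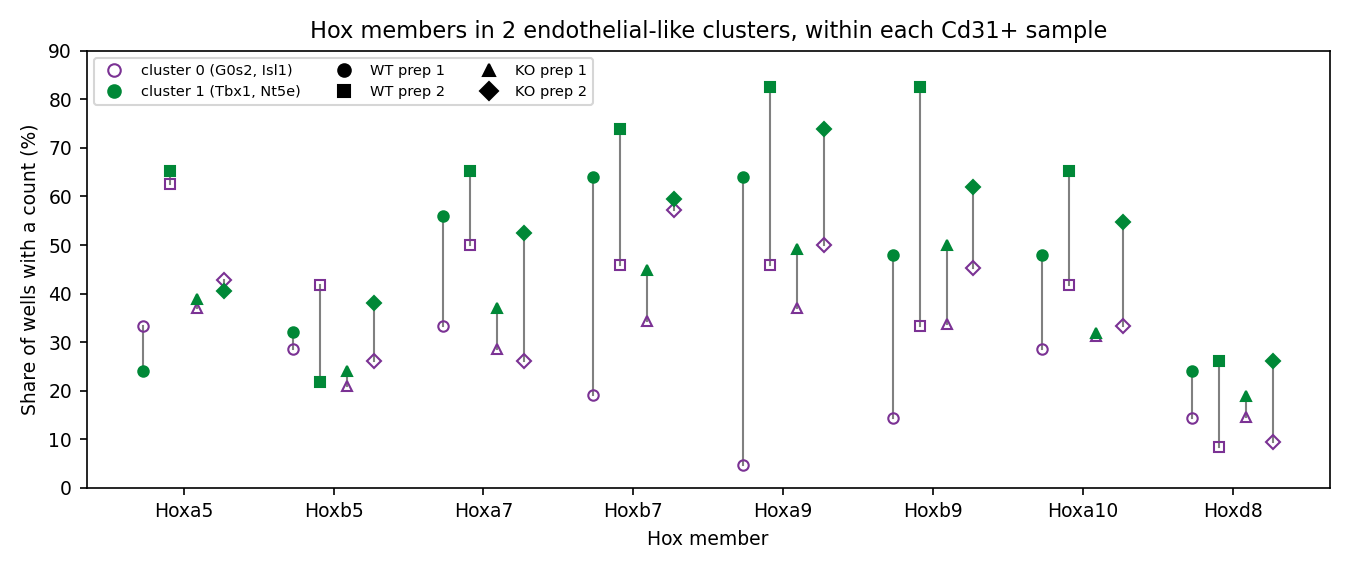
Share of wells with a count (percent) in the G0s2/Isl1 group (cluster 0) and the Tbx1/Nt5e group (cluster 1) of endothelial-like wells, for 8 Hox members, with cluster 0 open and cluster 1 filled and a line joining the points of each Cd31+ sample. The filled point is the higher one for Hoxa9 and Hoxb9 in 4 of 4 samples, and for Hoxa5 in 2 of 4.

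The same was asked of single wells, without clusters, through Tbx1, Isl1 and other outflow tract factors (Foxc2, Gata6 and Mef2c). In the 127 Cd31+ wells with a Tbx1 count, posterior members were read in 85.8%, against 75.2% of the other wells, which was 1.10 times the number expected within sample and depth part, and above 1 in each of the 4 samples (1.13, 1.17, 1.07 and 1.10). Anterior members were read in 75.6% against 57.6%, a ratio of 1.17, so both classes were read more often in Tbx1 wells. In the 301 wells with an Isl1 count, posterior members were read in 75.4% against 78.7% of the others, a ratio of 0.969 (0.918, 0.951, 1.02 and 0.943 by sample). Hoxb9 alone gave a ratio of 1.16 with Tbx1 and 0.999 with Isl1. The other factors gave posterior ratios of 1.05 (Foxc2), 1.02 (Gata6) and 1.03 (Mef2c). Foxc2 wells held posterior members in 81.6% against 69.8% of the others, a gap like that of Tbx1, and Mef2c gave a ratio of 1.14 with Hoxb9.

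Few of the genes that work with or upstream of Hox genes were called between the gates. In simulated data this test recovered 0 of 200 genes with a log2 change of 1 and 88 of 200 with 2. A lack of calls therefore does not show that levels were alike. Of 9 cofactors of the Pbx, Meis and Pknox families, which bind DNA together with Hox proteins, 8 were tested and 0 passed in either direction, with a median log2 difference of -0.42. Over all genes tested, 9.25% passed as higher and 9.79% as lower in Cd31-, with a median of -0.15, so lists of this size would hold few calls at the background rate. Meis1 came nearest, at 11 to 27.8 CPM in Cd31+ and 13.2 to 79.3 CPM in Cd31- samples (log2 difference 1.74, adjusted p = 0.0527). Of 19 regulators of Hox genes (Polycomb, trithorax and Cdx genes, with Ctcf and Gdf11), 15 were tested and 0 passed (median -0.57). Kmt2a, whose product keeps Hox genes active, was at 79.6 to 87.1 CPM against 62.8 to 91.7 CPM, and Cdx1, Cdx2 and Cdx4 were at 0 in every sample.

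Of 17 genes of the retinoic acid pathway, which sets Hox expression in the embryo, 11 were tested, 1 was higher in Cd31- and 0 were lower (median 0.45). That gene was Dhrs3, which turns retinaldehyde back into retinol, at 137 to 189 CPM in Cd31+ and 288 to 383 CPM in Cd31- samples (log2 difference 1.11 ± 0.25, adjusted p = 0.0154). Of 14 genes of the outflow tract and neural crest 5 were tested, with 1 higher in Cd31- (Mef2c, log2 difference 1.94 ± 0.28, adjusted p = 0.00207) and 2 lower, Isl1 (adjusted p = 0.00144) and Tbx1 (adjusted p = 0.0162), for a median of -1.76. With 5 genes tested, these counts are set beside the 19% called over all genes and no more is read from them. Isl1 and Tbx1 passed the filter on low counts through Cd31+ samples alone. Their direction was therefore bound to the filter, and the median includes them. Isl1 was at 59.5, 120, 85.4 and 70.6 CPM in the Cd31+ samples and 6.63, 0, 0 and 0 CPM in the Cd31- samples, and Tbx1 was at 1.85 to 9.32 CPM in Cd31+ and 0 in each Cd31- sample.

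Of 15 noncoding genes of the Hox clusters 6 were tested, with a median of -0.66. Over all genes tested 9.79% were lower in Cd31-, with a median of -0.15, and with 6 tested no more is read from the count. Of the 6, 2 were lower in Cd31-, Hoxa11os (adjusted p = 0.0349) and Hoxd3os1 (adjusted p = 0.0452), both without a Cd31- count. They passed the filter on low counts through Cd31+ samples alone, so their direction was bound to the filter. Both lie antisense to coding Hox genes, and without strand their reads cannot be told apart from those of the partner. Hotairm1, from the anterior end of HoxA, was in 30.3% of Cd31+ and 39.8% of Cd31- wells. Hottip, from the posterior end of HoxA, had no count, and Hotair, from within HoxC, had 1.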

How the data were processed

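Single cells from the mouse aorta were measured with Smart-seq2. The deposited values were raw read counts per gene and well, made by the authors with STAR 2.7.7a on GRCm38, Picard 2.22.0 to remove duplicate reads, and HTSeq 0.9.1, per the submitters' processing notes; the annotation release and the strand setting of the counting were not given in the sources used here. Summary lines that name no gene and spike-ins took 48.1% of all counts (32.0% not unique, 14.3% in no feature, 0.586% ambiguous) and were left out.

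The members and the other gene lists were chosen with earlier results of these data known. Every member was accounted for, and values per sample were given for those in at least 10% of the wells of a gate or called in a test, and for further HoxC and HoxD members chosen after their values were seen. Wells with at least 20000 gene counts and 500 genes were summed by genotype, gate and preparation, and CPM was taken over gene counts. Sums were tested with edgeR 4.0.16 (limma 3.58.1, R 4.3.3) after filterByExpr and TMM, with 4 group means, 4 residual degrees of freedom and Benjamini-Hochberg adjustment (threshold 0.05). Fold changes are edgeR's log2 values. p-values measure the spread between pooled preparations, 2 per group. Both gates were sorted from 1 suspension per genotype and preparation, which pairs them; deviations of gates from the same suspension correlated weakly (r = 0.0635 in WT and 0.0444 in KO). Plates held up to 2 genotypes, and no fit with plate as a term was made.

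Shares of wells have exact binomial (Clopper-Pearson) 95% intervals. PCR reads without molecular identifiers are not independent molecules. For a gene without counts the floor was 3 counts over the group. Thinning drew 20000 counts per well. Clusters came from Seurat 5.3.0 (2000 variable genes without Hox genes, 30 components, resolution 0.5, 7 clusters) and were named from fixed markers, with no doublet removal. Python was 3.11.15. Exon overlap and lengths were read from GENCODE M21. Alternatives were RLE factors, no filter, DESeq2 1.42.0, each sample left out, depth limits, blocks, cluster-matched wells and count minimums of 2 and 5. The gate test was tried on simulated data with 200 changed genes. At log2 changes of 1, 2 and 3, edgeR recovered 0, 88 and 131 of them, with 0, 10 and 3 false calls. DESeq2 recovered 5, 98 and 141, with 20, 52 and 49 false calls.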

Additional observations from a re-analysis of the deposited data

Results flagged for a closer look

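In 31 groups of 4 samples examined, 4 had 1 sample far from the others by Dixon's criterion, which chance alone gives in about 1 of 20 groups. Hoxb3 in the Cd31+ sample of KO preparation 2 was at 19.6 CPM, with the others at 6.16 to 8.12 CPM. Hoxb3 in the Cd31- sample of KO preparation 1 was at 5.41 CPM, with the others at 2.02 to 2.56 CPM. Hoxb7 in the Cd31- sample of WT preparation 2 was at 43.5 CPM, with the others at 22.3 to 23.4 CPM, and it rested on 12 wells. Hoxc8 in the Cd31+ sample of KO preparation 1 was at 0.316 CPM, with the others at 0 to 0.0250 CPM, and all 30 of its counts came from 1 fibroblast-like well.

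Wells left out for low depth also held Hox counts. The 220 such Cd31+ wells, with a median of 4780 counts, summed to 326 Hox CPM (435 counts in 102 wells), of which 144 counts were Hoxa9 or Hoxb9 and 0 were HoxC. The 20 such Cd31- wells summed to 146 Hox CPM (23 counts in 10 wells), of which 2 counts were Hoxa9 or Hoxb9. Both are well totals over all samples of a gate, so no test was made.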

How the results depend on the processing

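Hoxa9 and Hoxb9 were called between the gates in all 17 alternatives, with log2 differences of -8.37 to -3.18 (adjusted p up to 0.0229) and -9.02 to -4.09 (adjusted p up to 0.0267). The count of members called between gates, 4 in the reported fit, was 2 in wells with at least 100000 counts and 2 to 5 when a sample was left out. Hoxd3 was called in 5 of 16 alternatives and in 0 of 8 that left out a sample, and Hoxc8 in 6 of 15 and 2 of 8. The members called were 6 with no filter, 6 with DESeq2 and 5 with cluster-matched wells. With preparation as a replicate block 3 were called, with the cell suspension as a block 2, and the block changed no genotype or interaction call, where the count was 0 under every alternative run. The log2 difference between gates ran from -0.19 to 0.035 for Hoxa7 and from -0.18 to 6.77 for Hoxc6 when a sample was left out, both turning without the Cd31- sample of KO preparation 1, and was 0.11 for Hoxa7 in thinned wells. The log2 genotype difference ran from -0.61 to 0.21 for Hoxb9 in Cd31+ and from -9.32 to 7.70 for Hoxb9 in Cd31- when a sample was left out, both turning without WT preparation 1, and for Hoxa9 in Cd31- was 0.21 in wells with at least 100000 counts and 0.11 in smooth muscle-like wells. The cause was not tested.

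Thinning to 20000 counts lowered the shares of wells by construction, in Cd31+ to 36.7% for anterior, 75.4% for central and 65.8% for posterior members, 36.4% for Hoxa9 and 30.2% for Hoxb9, and in Cd31- to 29.6%, 68.5% and 21.3% for the classes. In wells with at least 100000 counts the anterior share of Cd31+ was 69.3%. With a minimum of 2 counts the Cd31+ shares were 47.8%, 78.8% and 72.0% and the anterior Cd31- share 35.2%. With a minimum of 5 they were 34.6%, 68.2%, 61.8%, 37.9% (Hoxa9) and 29.7% (Hoxb9) in Cd31+ and 26.9%, 61.1% and 19.4% in Cd31-. The anterior with posterior ratio in Cd31+ was 1.02 thinned, 1.03 in wells of at least 100000 counts, 1.08 with a minimum of 5, 1.04 with groups 1 to 5 as anterior and 1.05 within clusters. Anterior with central was 1.01 thinned and 1.08 with a minimum of 5 in Cd31+, and 1.13 with that minimum in Cd31-. Central with posterior in Cd31+ was 1.07 thinned, 1.07 with a minimum of 5 and 1.07 with groups 1 to 5 as anterior, and in Cd31- 0.893 thinned and 0.903 with a minimum of 5.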
